A study of Homo sapiens with 36 samples.

Results

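The 28 genes described here encode the proteins of the small (40S) subunit of the cytosolic ribosome: RPSA, RPS2, RPS3, RPS3A, RPS4X, RPS6, RPS7, RPS9, RPS10, RPS12, RPS13, RPS14, RPS15, RPS15A, RPS16, RPS18, RPS19, RPS20, RPS21, RPS23, RPS24, RPS25, RPS26, RPS27, RPS27A, RPS28, RPS29 and FAU. They were chosen by gene symbol, without use of any measured value, and are 28 of the 58219 genes in the RNA data and 28 of the 43582 in the ribosome footprint data. The study treated WiT49, a cell line from an anaplastic Wilms tumor, with the DNA-binding drug actinomycin D (actD), an inhibitor of transcription, and sequenced total RNA and ribosome footprints, the short fragments that ribosomes shield from nuclease. Cells received 2 nM actD or the vehicle dimethyl sulfoxide (DMSO) for 6 h, for 72 h, or for 2 weeks in 2 cycles of 7 days (3 days with drug or vehicle, then 4 days in plain medium). Each of the 12 groups had 3 libraries. In the RNA data of 2 weeks, title and library name contradict each other on the treatment; the library name is used here, as "named actd" or "named dmso", and the difference is named actd minus named dmso. All groups are the same line, and no control of another line is among the samples used here. Nothing in the labels says that the 3 libraries of a group came from separate cultures, so p-values measure the spread between these libraries, which may be technical.

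The small subunit carries the 18S ribosomal RNA, binds messenger RNA and reads its codons, and its proteins are made in the cytoplasm and assembled onto the RNA in the nucleolus. Low doses of actD are known to block ribosomal RNA synthesis by RNA polymerase I before other transcription. The messengers of most ribosomal proteins begin with a C followed by a run of pyrimidines, the 5′ terminal oligopyrimidine (TOP) tract, through which mTORC1 and the RNA-binding protein LARP1 set their translation together.

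The tract is shown first because it is the sequence these genes are known to share. RefSeq starts (GRCh38.p14) were found for 25 of the 28 genes; RPS2, RPS15A and RPS20 were not matched. Each window below holds 10 bases before the start and 20 from it, 5′ to 3′ on the gene's strand, and capitals mark the tract, searched as a C at the start itself and at least 4 further C or T without a break, on the gene's strand only. The first 6 genes have a tract and had footprint values at 72 h that were higher in each actD library than in each DMSO library. The next 4 have one too and are among the genes whose footprints differed least, and the last 2 have none at the RefSeq start. The 12 were picked with those values in view.
RPS21 (chr20:62387093-62387122, plus strand): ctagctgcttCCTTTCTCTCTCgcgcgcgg
RPS12 (chr6:132814559-132814588, plus strand): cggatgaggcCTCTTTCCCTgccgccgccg
RPS23 (chr5:82278335-82278364, minus strand): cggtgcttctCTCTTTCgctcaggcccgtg
RPS13 (chr11:17077648-17077677, minus strand): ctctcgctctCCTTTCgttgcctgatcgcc
RPS6 (chr9:19380217-19380246, minus strand): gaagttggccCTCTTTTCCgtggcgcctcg
RPS3A (chr4:151099618-151099647, plus strand): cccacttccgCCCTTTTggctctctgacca
RPS9 (chr19:54200848-54200877, plus strand): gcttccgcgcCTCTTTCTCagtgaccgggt
RPS25 (chr11:119018324-119018353, minus strand): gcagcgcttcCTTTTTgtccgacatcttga
RPSA (chr3:39406710-39406739, plus strand): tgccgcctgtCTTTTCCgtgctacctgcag
FAU (chr11:65122115-65122144, minus strand): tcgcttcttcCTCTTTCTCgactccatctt
RPS29 (chr14:49598691-49598720, minus strand): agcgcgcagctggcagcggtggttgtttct
RPS15 (chr19:1438386-1438415, plus strand): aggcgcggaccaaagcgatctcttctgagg

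A tract was found at a start of 19 of the 25 genes (76%), and RPS4X, RPS7, RPS15, RPS26, RPS28 and RPS29 had none at the starts listed. The same search found it in 28 of 38 large-subunit protein genes (73.7%), 11 of 14 other genes known for TOP messengers (78.6%) and 3 of 39 small-subunit assembly factors (7.69%). Counted by single starts, it was found at 19 of 28 small-subunit starts (67.9%), against 1429 of all 35116 starts (4.07%). The longest tract, 14 bases, was that of RPS24, and the shortest ones, in RPS13, RPS25 and RPS27A, had 6 bases. A match describes these letters at an annotated start and is not a measurement of where transcription began in these cells.

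The 2 assays saw these genes at very different depth. RNA libraries held 40221994 to 69240041 counts, of which the 28 genes took 559195 to 1686274. Footprint libraries held 152556 to 1281039 counts, 23134 to 283435 of them in protein-coding genes and 74 to 5587 in the 28 genes. The smallest number of footprint counts in these genes, 74, was in DMSO replicate 3 at 72 h, where 3 counts, the limit that a count of 0 allows, correspond to 37.3 CPM (reads per library size adjusted by TMM factors). In the other footprint libraries that limit lay between 2.70 and 10.1 CPM. Intervals and limits of this kind cover counting error only. Of the markers reported here to check the label, IGF2 was between 1020 and 2360 CPM in RNA, and NCAM1 and WT1 were detected in every RNA library, while SIX2, EYA1, PAX2, PAX8 and CITED1 stayed under 1 CPM; HBB, a red-cell gene, was at 0 and PTPRC, a blood-cell gene, did not exceed 0.42 CPM. EPCAM, an epithelial gene (5.98 to 21.7 CPM), and the collagen gene COL1A1 (346 to 818 CPM) were detected in every RNA library.

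In RNA, all 28 genes had counts in every library. In bulk samples, fewer cells of a kind and less RNA per cell cannot be told apart. Together they made up 2.00% to 3.70% of protein-coding counts. Per kilobase of annotated transcript, RPS27, which lies on the platform side and is bound by the ubiquitin ligase MDM2, was the highest in DMSO cells at 6 h with 2348 ± 337 CPM per kb (SD, n = 3), followed by RPS14, whose loss underlies the anemia of 5q- syndrome, with 1666 ± 216 (CPM per kb, SD, n = 3) and RPS18, next to the P site in the head, with 1636 ± 198 (CPM per kb, SD, n = 3). RPS14 and RPS18 did not differ beyond their spread. RPS16, whose tail reaches the P-site tRNA, was the lowest with 105 ± 60.3 CPM per kb (SD, n = 3). The scale uses 1 transcript per gene, and the long annotated transcripts of RPS23 (3437 bases) and RPS28 (1326 bases) lower their values on it.

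Footprints gave another order. Per kilobase of coding sequence, RPS13, which binds the central domain of 18S RNA early in assembly, was highest in DMSO cells at 6 h with 222 ± 88.0 CPM per kb (SD, n = 3), followed by RPS25 in the head with 126 ± 12.3 (CPM per kb, SD, n = 3) and FAU, made as a fusion with a ubiquitin-like protein, with 121 ± 69.2 (CPM per kb, SD, n = 3), and the spread of these 3 overlapped. RPS27, the highest in RNA, had 10, 1 and 18 footprint counts in the 6 libraries of 6 h, 72 h and 2 weeks. RPS10 was listed at 0 in all 18 footprint libraries although its 6 RNA libraries at 72 h held 152044 counts. RPS24 was at 0 in 14, RPS26 in 12, RPS28 in 11 and RPS27 in 10 of the 18.

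These gaps stood beside how much of each coding sequence is shared with other genes. All 28-base stretches of the coding sequences of RPS3A, RPS10, RPS26, RPS27 and RPS28 also occur in annotated pseudogenes, and 91.7% of those of RPS10 occur in another gene as well, the overlapping readthrough gene RPS10-NUDT3. Yet RPS3A had 365 footprint counts at 72 h, and RPS19, with 29.9% shared, had 8, and RPS21, the least shared with 20.7%, had 127. The footprint data list 2 processed pseudogenes against 10185 in the RNA data. How the authors treated reads that fit several places is not given in the sources used here, and its part in these gaps was not tested. Of the 28 genes, 9 passed the filter on low footprint counts at all 3 times (RPS3, RPS4X, RPS9, RPS13, RPS14, RPS15A, RPS23, RPS25 and FAU), and 5 at none (RPS10, RPS26, RPS27, RPS27A and RPS28).

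Pseudogenes also held RNA counts. Pseudogenes named after the 28 genes took 6.17% of the counts of genes and pseudogenes together at 6 h, 13.7% at 72 h and 6.01% at 2 weeks. At 72 h the share was 61.6% for RPS26, which lines the mRNA exit channel, 55.2% for RPSA, also known as the laminin receptor, and 45.6% for RPS2, at the mRNA entry. At 6 h it was 8.91%, 15.3% and 30.3% for the same genes. The plot of pseudogene shares gives the 12 genes at 5% or more. RNA values of these genes are therefore uncertain in the 72 h data, and levels are compared only within a time point. Adding the pseudogene counts to each gene left the number of genes that passed the test at 0 in all 12 comparisons made here. In footprints these pseudogenes held only 1, 7 and 4 counts at 6 h, 72 h and 2 weeks. The addition could therefore hardly change the comparisons of footprints alone.

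**Figure D1:**
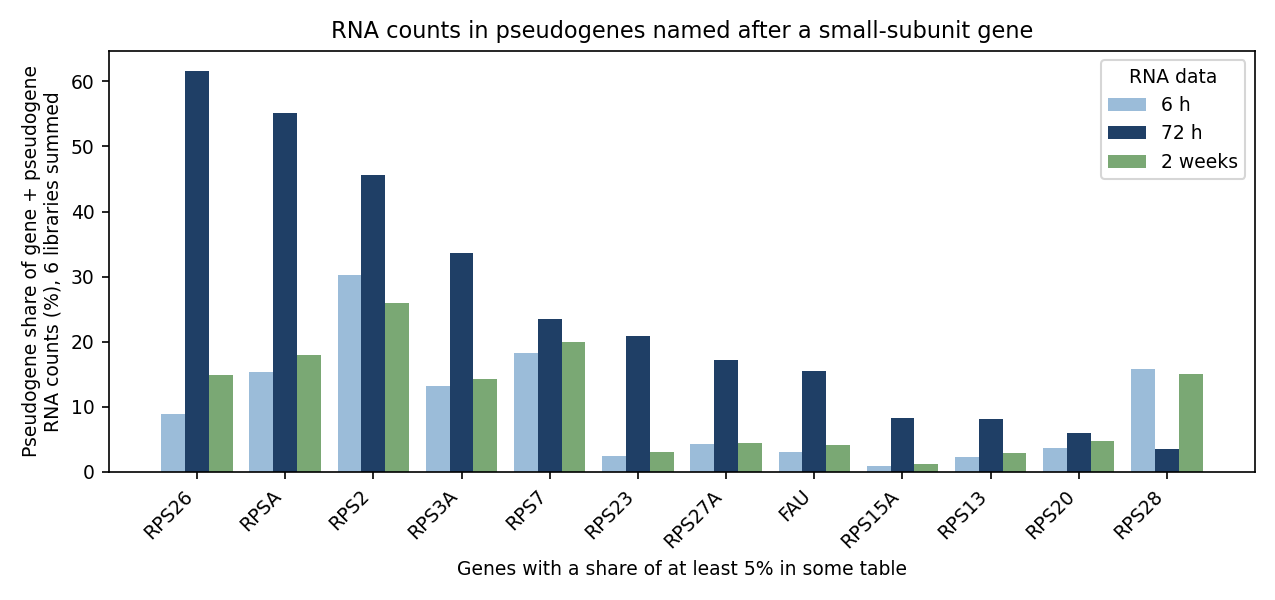
RNA counts in annotated pseudogenes named after a gene, as a percentage of the counts of the gene and its pseudogenes together, summed over the 6 libraries of 6 h, 72 h or 2 weeks (bars). RPS26, RPSA and RPS2 have the tallest bars at 72 h, 61.6%, 55.2% and 45.6%, and RPS28 is lower at 72 h (3.58%) than at 6 h (15.8%).

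The first comparison was of RNA after 6 h of actD. No gene of the small subunit passed the test, a quasi-likelihood test in edgeR with p-values adjusted over all genes by the method of Benjamini and Hochberg. The count was 0 of 28, with 0 at an unadjusted p under 0.05 and 0 by DESeq2, against 0 of all 22669 genes tested (0%), of which 1862 (8.21%) had an unadjusted p under 0.05 and 204 passed in DESeq2. The log2 fold changes (actD minus DMSO) had a median of 0.11 and were above 0 for 24 of the 28, against 53% of all genes, whose median was 0.02. That lean came from 2 libraries. ActD replicate 3 held the highest value of 25 of the 28 genes and DMSO replicate 3 the lowest value of 22, and the median was -0.05 without the former (7 of 28 above 0), 0.01 without the latter (15 of 28 above 0), 0.20 without actD replicate 1 and 0.18 without DMSO replicate 1.

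The smallest p at 6 h was that of RPS24, a body protein mutated in Diamond-Blackfan anemia. Its RNA was at 1108, 1099.5 and 1526 CPM in the 3 actD libraries and at 985, 1078 and 931 CPM in the 3 DMSO libraries. The arms did not overlap, as for 1 of the 28 genes and 15.8% of all genes, and the log2 fold change was 0.32 (SE 0.16, edgeR adjusted p = 0.666). RPS3, a head protein at the mRNA entry, had 537, 475 and 493 CPM under actD against 552, 661 and 529 CPM in DMSO. It was the lowest of the 28 at -0.21 (SE 0.13, edgeR adjusted p = 0.734). RPS23, beside the decoding center, had 725, 671 and 1000.4 CPM against 722, 674 and 587 CPM, with a log2 fold change of 0.27 (SE 0.18, edgeR adjusted p = 0.745).

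The highest log2 fold change at 6 h was that of RPS16, 0.39 (SE 0.49, edgeR adjusted p = 0.889). Its libraries were spread widely, at 46.8, 82.5 and 102 CPM under actD and 19.95, 82.1 and 73.9 CPM in DMSO, and without DMSO replicate 1 the log2 fold change was -0.02. RPS27A, translated as a fusion with ubiquitin, had 1059.6, 1108.5 and 1418 CPM against 1104, 1115 and 913 CPM. FAU had 159.8, 169 and 209 CPM against 203, 177 and 145 CPM. RPS6, the substrate of the S6 kinases, had 428, 468 and 575 CPM against 483, 482 and 397 CPM. In each of these the arms overlapped and actD replicate 3 was the highest of the 6 libraries. RPS2 had 1292, 1266 and 1676 CPM against 1585, 1054 and 1156 CPM. RPS19, the gene most often mutated in Diamond-Blackfan anemia, had 498, 526 and 672 CPM against 632, 548 and 465 CPM.

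After 72 h, 24 of the 28 genes had an RNA log2 fold change below 0, and that lean rested on 1 DMSO library. The edgeR count was again 0 of 28, with 1 at an unadjusted p under 0.05 and 1 by DESeq2, against 1 of 21195 genes (0.00472%), 13.1% at an unadjusted p under 0.05 and 605 genes in DESeq2. The median log2 fold change was -0.31, against 0.02 over all genes, and 4 of 28 were above 0 (51.4% of all genes). DMSO replicate 3 held the highest value of 23 of the 28, and there they took 3.70% of protein-coding counts against 2.07% to 2.53% in the other 5 libraries. Without it the median was -0.0024, with 14 of 28 above 0. Without DMSO replicate 2, the lowest library for 12 genes, the median was -0.54. In that fit 7 of the 28 were at an unadjusted p under 0.05, against 2895 of 21931 over all genes. Without DMSO replicate 1 the number was 2, against 2124 of 22150.

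RPS9, a body protein that bears on decoding accuracy, was the gene with the smallest p. Its RNA was at 155, 148 and 143 CPM under actD and at 232, 223 and 271 CPM in DMSO. All 3 actD libraries lay below all 3 DMSO libraries, as in 2 of the 28 genes, against 10.3% of all genes. The log2 fold change was -0.70 (SE 0.18, edgeR adjusted p = 0.263). It was -0.62 without DMSO replicate 3. RPS9 passed in DESeq2 (adjusted p = 0.0253) and in 1 edgeR fit over the 3 time points (adjusted p = 0.0195).

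RPS3 was the other gene whose arms were apart downward, at 436, 429 and 424 CPM under actD against 511, 539 and 1044 CPM in DMSO. Its log2 fold change was -0.70 (SE 0.31, edgeR adjusted p = 0.391), and -0.30 without DMSO replicate 3. RPS2 was apart upward, at 894, 985 and 984 CPM against 544, 858 and 623 CPM, the highest of the 28 at 0.50 (SE 0.24, edgeR adjusted p = 0.431). Upward separation was seen in 1 of the 28 and in 10.5% of all genes. RPS4X, a body protein, had 845, 809 and 875 CPM against 1068, 862 and 1862 CPM, a log2 fold change of -0.58 (SE 0.31, edgeR adjusted p = 0.477).

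In 3 more genes DMSO replicate 3 stood above the rest. RPS6 had 245, 252 and 296 CPM under actD against 315, 244 and 651 CPM. RPS27A had 876, 956 and 1131 CPM against 1119, 936 and 1844 CPM, and RPS19 had 514, 419 and 450.3 CPM against 520.0, 374 and 828 CPM. The arms overlapped in all 3. In FAU that library was the highest too but by little, at 98.0, 98.1 and 93.1 CPM against 93.8, 86.4 and 104 CPM, a log2 fold change of 0.02 (SE 0.17). The 12 head proteins (median -0.31) and the 16 body and platform proteins (median -0.32) had like medians, and so did the 19 genes with a tract (median -0.35) and the 6 without one (median -0.29).

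**Figure D2:**
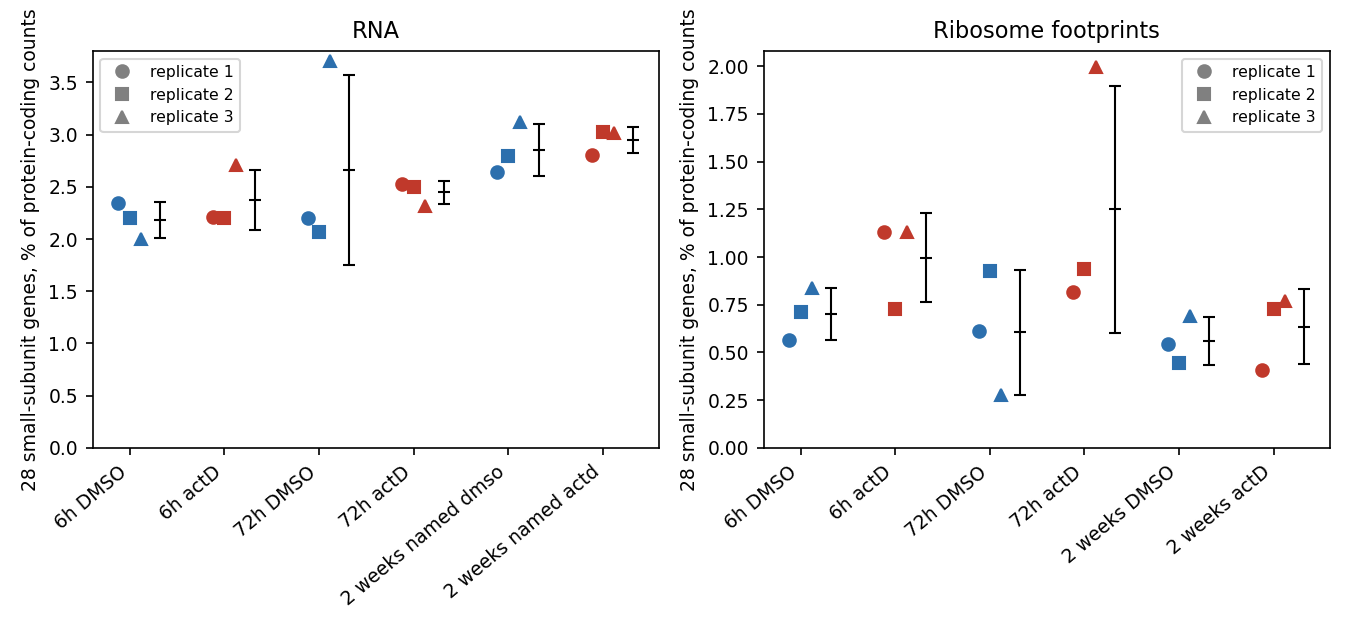
Share of protein-coding counts held by the 28 small-subunit genes in each RNA library (left) and each footprint library (right), in percent; points are libraries, with the replicate number as symbol, and bars show the mean ± SD of 3 libraries. DMSO replicate 3 at 72 h stands at 3.70% in RNA, and actD replicate 3 at 72 h at 1.99% in footprints.

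In the 2-week RNA libraries the 28 genes lay close to 0. The edgeR count was 0 of 28, with 1 at an unadjusted p under 0.05 and 1 by DESeq2, against 0 of 21137 genes (0%), 8.93% at an unadjusted p under 0.05 and 197 in DESeq2. The median log2 fold change (named actd minus named dmso) was 0.03 with 17 of 28 above 0 (46.8% of all genes), and it turned to -0.12 when libraries were scaled by their totals alone, where the median of all genes moved from -0.02 to -0.18. It also ran from -0.06 without named dmso replicate 1 to 0.15 without named dmso replicate 3, where 3 genes were at an unadjusted p under 0.05, and was 0.08 without named actd replicate 1 and -0.0022 without named actd replicate 3. Without named actd replicate 2, 2 genes were at that level. Over all genes it was 2934 of 22159 without named dmso replicate 3 and 1370 of 22015 without named actd replicate 2. By the titles every sign is the opposite.

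RPS16 had the smallest p. It stood at 83.7, 111.4 and 116 CPM in the libraries named actd and at 39.5, 50.8 and 81.3 CPM in those named dmso, so the groups did not overlap. Its log2 fold change was 0.86 (SE 0.26, edgeR adjusted p = 0.455, DESeq2 adjusted p = 0.0486), or -0.86 by the titles. RPS15, a head protein whose tail reaches the decoding center, was the other gene without overlap, with 258, 196 and 207 CPM against 170.1, 188 and 182 CPM and a log2 fold change of 0.29 (SE 0.14, edgeR adjusted p = 0.582). No overlap was thus found in 2 of 28 genes, against 15.7% of all genes. RPS26 had 190.3, 200.4 and 213 CPM against 154, 144 and 214 CPM (log2 fold change 0.24). RPS3A, on the platform, was the lowest at -0.15 with 631, 554 and 567 CPM against 582, 693 and 674 CPM.

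The other genes followed here differed by less than their spread. RPS27A had 985, 871 and 939 CPM against 862, 957 and 1128.5 CPM, and FAU had 123.1, 134 and 129 CPM against 116, 134 and 149 CPM. RPS6 had 402, 373 and 416 CPM against 382, 378 and 457 CPM, and RPS19 had 431, 471 and 498 CPM against 429, 503 and 539 CPM. The third library named dmso was the highest of its group in these 4 genes, and it was the highest of all 6 libraries in 20 of the 28. RPS2 had 1413, 1559 and 1596 CPM against 1229.7, 1383 and 1602 CPM. RPS3 had 679, 733 and 587 CPM against 503, 649 and 749 CPM.

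Footprints at 6 h were measured for few of these genes. Only 9 of the 28 passed the filter, so the counts below are not of all members of the subunit. The edgeR count was 0 of 9, with 0 at an unadjusted p under 0.05 and 0 by DESeq2, against 0 of 1212 genes (0%), 3.14% at an unadjusted p under 0.05 and 12 genes in DESeq2. The median log2 fold change was 0.34 with 8 of 9 above 0 (56.8% of all genes), but -0.32 with 4 of 9 above 0 when libraries were scaled by their totals, where the median of all genes moved from 0.11 to -0.61. It was -0.17 without actD replicate 3, which held the highest value of 18 of the 26 genes with counts, 0.61 without actD replicate 2, 0.22 without DMSO replicate 1 and 0.13 without DMSO replicate 2.

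RPS4X was the gene with the smallest p, at 51.7, 50.3 and 71.9 CPM under actD and 24.5, 29.9 and 42.0 CPM in DMSO. The arms did not overlap (9.41% of all genes), and the log2 fold change was 0.86 (SE 0.38, edgeR adjusted p = 0.889). RPS3 had 41.3, 39.7 and 135 CPM against 33.7, 31.2 and 47.2 CPM (log2 fold change 0.95, the highest). RPS25 had 57.9, 50.3 and 124 CPM against 44.9, 44.2 and 52.5 CPM, and RPS13 had 138, 111.2 and 225 CPM against 66.3, 90.9 and 144 CPM. In these 3 the third actD library was the highest and the arms overlapped. FAU was the lowest at -0.37 with 28.9, 21.2 and 62.9 CPM against 54.0, 72.7 and 18.4 CPM. Genes under the filter were counted in single reads: RPS2 had 5, 3 and 6 counts against 8, 8 and 3, RPS6 had 0, 3 and 11 against 7, 10 and 8, RPS27A had 12, 0 and 3 against 29, 2 and 4, and RPS19 had 0, 6 and 1 against 1, 1 and 0.

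At 72 h footprints of the small-subunit genes were higher under actD in most of the genes that could be tested, but none passed the adjusted threshold. Of the 21 tested, 18 had a log2 fold change above 0 (52.8% of all genes) and the median was 1.20, against 0.07 over all genes. The edgeR count was 0 of 21, and 0 by DESeq2, against 92 of 2426 genes (3.79%), 1.61% higher and 2.18% lower. At an unadjusted p under 0.05 stood 9 of the 21, all higher, against 14.2% of all genes higher and 13.1% lower. The 3 actD libraries lay above the 3 DMSO libraries in 10 of the 21 genes, against 19.5% of all genes. Of the 10, RPS29 is uncertain, because it had no count in DMSO replicate 3, where the limit that a count of 0 allows is 37.3 CPM. RPS21, RPS20 and RPS12 are uncertain as well, because they had only 2, 1 and 2 counts in that library. RPS7 is uncertain too, with 4 counts in that library and values of 64.2 CPM under actD and 61.1 CPM in DMSO at the closest. The 21 are those with enough counts in at least 1 arm, which the actD libraries, with 1201 to 5587 counts in these genes against 74 to 767 in DMSO, supplied more often, so these shares do not describe all 28.

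The leading genes sit on different parts of the subunit. RPS21, which packs against RPSA on the body, had 47.8, 106.05 and 50.0 CPM under actD and 15.8, 16.8 and 24.9 CPM in DMSO, a log2 fold change of 1.90 (SE 0.48, edgeR adjusted p = 0.0671). RPS20, a head protein, had 71.7, 51.7 and 84.5 CPM against 24.9, 30.2 and 12.4 CPM, a log2 fold change of 1.48 (SE 0.38, edgeR adjusted p = 0.0709). RPS12, in the beak of the head, had 37.3, 73.4 and 107.06 CPM against 20.4, 23.5 and 24.9 CPM, a log2 fold change of 1.70 (SE 0.49, edgeR adjusted p = 0.0838). The measured arms were apart in all 3, but DMSO replicate 3 held only 2 (RPS21), 1 (RPS20) and 2 (RPS12) counts. Such low counts leave their separation uncertain. RPS29, a small zinc-binding head protein, had 38.8, 35.3 and 29.7 CPM against 13.6, 10.1 and 0 CPM, a log2 fold change of 1.68 (SE 0.48, edgeR adjusted p = 0.0839). The limit for the library at 0 is above 2 of these actD values, so its arms cannot be called separate.

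Other genes whose measured arms were apart were RPS3A, RPS6, RPS7, RPS13, RPS14 and RPS23. RPS7 had 159.8, 160.4 and 64.2 CPM under actD against 61.1, 0 and 49.8 CPM (log2 fold change 1.82, SE 0.91). Its DMSO replicate 3 held 4 counts, and its closest actD and DMSO values were 64.2 and 61.1 CPM. Its separation is therefore uncertain. RPS6 had 73.2, 92.5 and 167 CPM against 27.1, 63.7 and 12.4 CPM (log2 fold change 1.54, edgeR adjusted p = 0.130). RPS3A had 193, 155 and 137 CPM against 90.5, 70.4 and 37.3 CPM (log2 fold change 1.20, edgeR adjusted p = 0.108). RPS23 had 229.9, 286 and 660.2 CPM against 83.7, 141 and 0 CPM (log2 fold change 2.25). In RPS6, RPS3A and RPS23 the actD libraries were above all DMSO libraries, although DMSO replicate 3 rested on 1 to 3 counts or none. RPS13 alone held 2304 of the 5587 counts that these genes had in actD replicate 3 (41.2%), and its values of 824, 829 and 2741 CPM against 258, 597 and 24.9 CPM gave a log2 fold change of 2.29 (SE 0.98). RPS15A, which overlapped, had 405, 160.4 and 433 CPM against 74.7, 184 and 49.8 CPM (log2 fold change 1.64).

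The highest fitted value was that of RPS24, 2.65 (SE 1.44, edgeR adjusted p = 0.263), but it was at 0 in 1 actD library and 2 DMSO libraries, with 107.5, 0 and 221 CPM against 38.5, 0 and 0 CPM, and the arms overlapped. Some genes had nearly equal arms. RPSA had 31.4, 24.5 and 29.7 CPM against 33.9, 26.8 and 24.9 CPM (log2 fold change -0.05, SE 0.32). RPS25 had 103, 89.7 and 176 CPM against 104, 134 and 162 CPM (log2 fold change -0.08, SE 0.40). RPS9 was the lowest at -0.22 (SE 0.49) with 46.3, 125 and 83.3 CPM against 95.0, 134 and 49.8 CPM, and its value was 0.16 without actD replicate 1 and 0.09 without DMSO replicate 2.

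RPS2 had 46.3, 48.9 and 34.5 CPM against 31.7, 43.6 and 37.3 CPM (log2 fold change 0.20, SE 0.33). FAU had 131, 133 and 42.8 CPM against 106.3, 93.9 and 37.3 CPM (log2 fold change 0.26, SE 0.54). RPS3 was higher but overlapping, at 433, 413 and 763 CPM against 249, 429 and 137 CPM (log2 fold change 0.96, SE 0.54). Of the head proteins 7 were tested, with a median of 0.96 and 3 at an unadjusted p under 0.05, and of the body and platform proteins 14, with a median of 1.37 and 6. The 14 tested genes with a tract had a median of 1.08 and the 4 without one 1.36, so both sets leaned the same way. RPS27A and RPS19 did not pass the filter: RPS27A had 7, 5 and 125 counts against 3, 48 and 0, and RPS19 had 2, 1 and 2 against 1, 1 and 1.

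**Figure D3:**
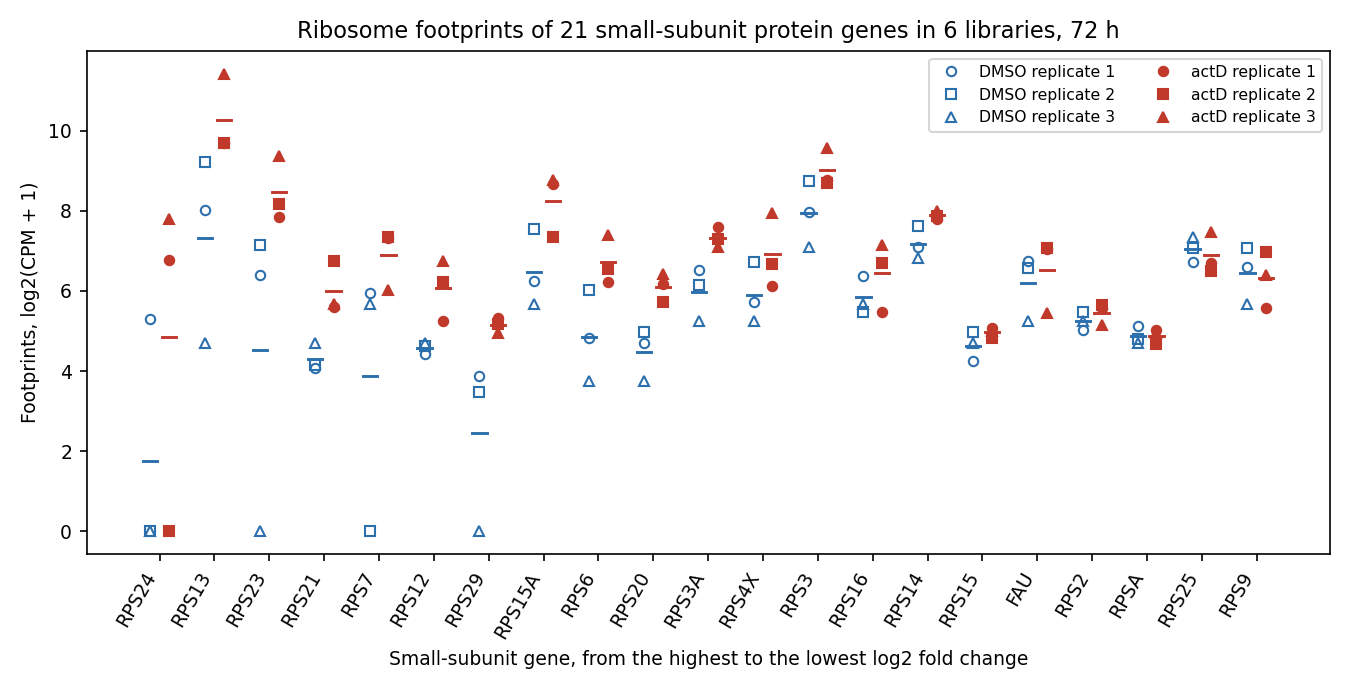
Footprint values at 72 h, as log2(CPM + 1), of the 21 small-subunit genes tested, ordered by log2 fold change; filled red symbols are actD libraries, open blue symbols DMSO libraries, the shape gives the replicate and short lines the mean of 3. RPS21, RPS12 and RPS20 show 3 actD libraries above 3 DMSO libraries, RPSA and RPS25 show mixed arms, and points at 0 are libraries without a count.

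These results depend on depth and on single libraries. Of the 27 genes with counts, DMSO replicate 3 had the lowest value of 12 and actD replicate 3 the highest of 12. Without DMSO replicate 3 the median over 23 genes was 0.88 and 7 were at an unadjusted p under 0.05. Over all genes 909 of 3207 were at that level there. Without actD replicate 3 the median was 1.13, and 6 of 22 were at an unadjusted p under 0.05, against 959 of 2708 over all genes. RPS21 passed in that fit (adjusted p = 0.0466 in edgeR). Without DMSO replicate 1 the number at an unadjusted p under 0.05 was 5 of 22, against 426 of 2827 over all genes. The small-subunit genes counted in these fits were all higher, while the numbers over all genes count higher and lower together. Over all genes the count of 92 was 0 without actD replicate 1, actD replicate 2, DMSO replicate 1 or DMSO replicate 2, 282 without actD replicate 3 and 55 without DMSO replicate 3. Total footprint counts were 416131 to 784322 under actD and 152556 to 440974 in DMSO, and the part of depth in these results was not tested.

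Translational efficiency, the footprint value relative to the RNA value, was tested at 72 h as the interaction of assay and treatment over 12 libraries. The edgeR count was 0 of 21, with 9 at an unadjusted p under 0.05, all higher, against 10 of 2311 genes (0.433%), 9.17% of genes higher and 5.76% lower at an unadjusted p under 0.05. DESeq2 gave 2 of 21, RPS21 (adjusted p = 0.0499) and RPS23 (adjusted p = 0.0461), against 59 of the 2311 genes. The median over the 21 was 1.46, with 19 above 0 (51.9% of all genes), against 0.03 over all genes. It was 1.00 without RNA DMSO replicate 3, where 5 were at an unadjusted p under 0.05, and 1.73 with library totals, where the median of all genes moved to 0.36. Without RNA DMSO replicate 3, 284 of 2312 over all genes were at an unadjusted p under 0.05, higher and lower together. The 5 small-subunit genes there were all higher. The efficiency values use the same libraries as the footprint and RNA comparisons and add no independent replicate.

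RPS21 had the smallest p here too, with a log2 difference of 1.98 (SE 0.55, edgeR adjusted p = 0.132). RPS23 followed with 2.56 (SE 0.89, edgeR adjusted p = 0.228), RPS6 with 2.06 (SE 0.74, edgeR adjusted p = 0.245) and RPS20 with 1.46 (SE 0.53, edgeR adjusted p = 0.248). The same libraries set RPS24 highest at 2.78 (SE 1.51) and RPS2 lowest at -0.44 (SE 0.45). RPS2 combined the highest RNA difference of the 28 genes with a footprint difference near 0. FAU was at 0.07 (SE 0.57) and RPSA at 0.29 (SE 0.56).

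**Figure D4:**
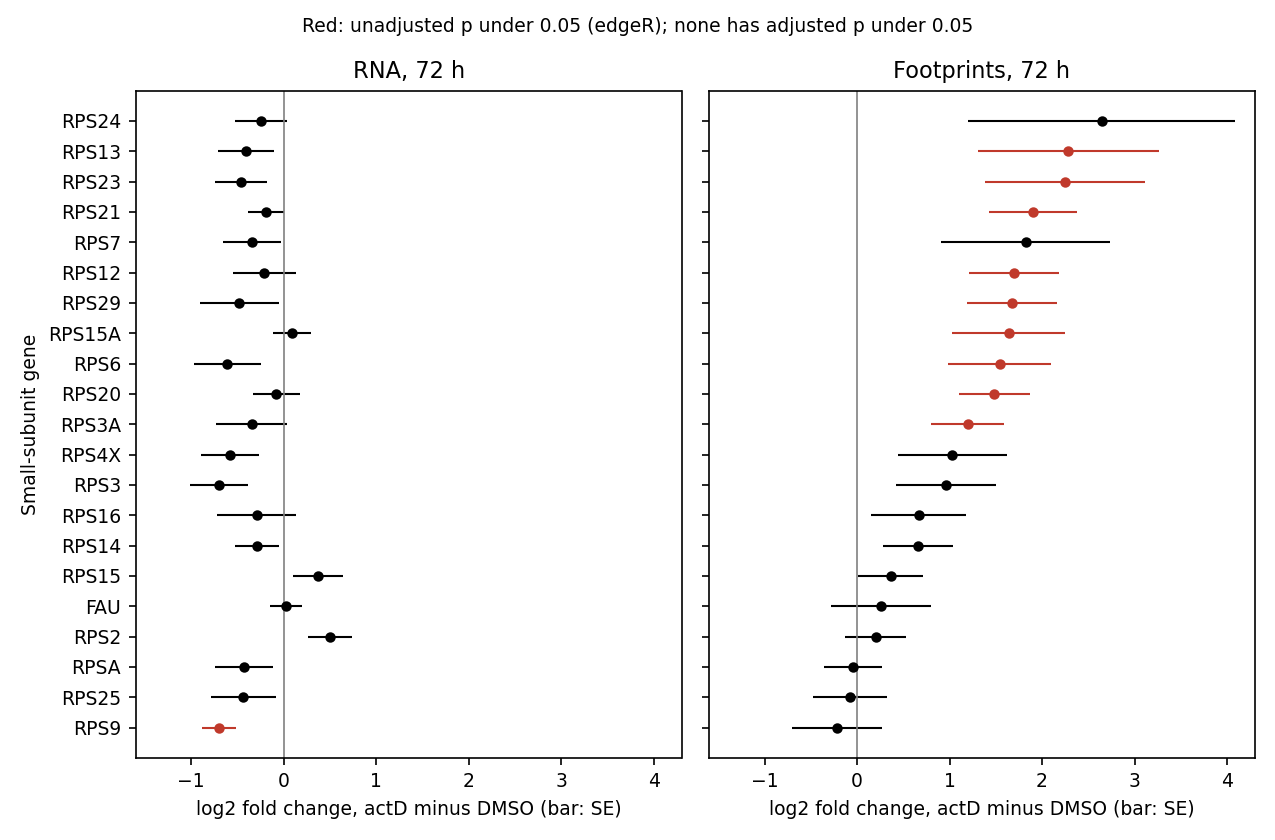
Log2 fold changes (actD minus DMSO) at 72 h with SE bars for RNA (left) and footprints (right) of the 21 genes tested in both, from 3 against 3 libraries; red marks an unadjusted p under 0.05 in edgeR. Footprint values run from -0.22 (RPS9) to 2.65 (RPS24) and 9 are red, while in RNA only RPS9 is.

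After 2 weeks, in the footprint libraries, whose labels do not conflict, 12 of the 28 genes passed the filter. The edgeR count was 0 of 12, with 0 at an unadjusted p under 0.05 and 0 by DESeq2, against 0 of 1598 genes (0%), 8.57% at an unadjusted p under 0.05 and 0 in DESeq2. The median log2 fold change was 0.48 with 9 of 12 above 0 (51.3% of all genes). It was 0.12 without actD replicate 2, 0.18 without actD replicate 3 and 0.27 with library totals, where the median of all genes was -0.14. Leaving out DMSO replicate 3 put 4 of 15 genes at an unadjusted p under 0.05, against 238 of 2073 over all genes. Leaving out actD replicate 1 put 2 of 14 there, against 292 of 1979. Leaving out actD replicate 3 put 1 of 12 there, against 73 of 1686. FAU was the 1 gene of 12 without overlap (14.9% of all genes), at 43.3, 45.6 and 52.5 CPM under actD and 29.4, 30.6 and 31.7 CPM in DMSO, a log2 fold change of 0.62 (SE 0.28, edgeR adjusted p = 0.562).

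RPS3A had 11.4, 28.5 and 29.2 CPM against 6.19, 9.001 and 19.6 CPM (log2 fold change 1.00, SE 0.50). RPS23 had 20.5, 59.3 and 53.9 CPM against 13.9, 16.2 and 42.3 CPM (log2 fold change 0.89, SE 0.56). The highest and the least certain was RPS13, at 9.11, 101 and 171 CPM against 20.1, 7.20 and 70.9 CPM (log2 fold change 1.53, SE 1.06). RPS25 was the lowest, at 63.8, 70.7 and 37.9 CPM against 159.5, 63.9 and 55.8 CPM (log2 fold change -0.69, SE 0.50). RPS3 had 27.3, 57.0 and 40.8 CPM against 21.7, 21.6 and 49.8 CPM, and RPS19 had 11.4, 1.14 and 20.4 CPM against 10.8, 13.5 and 1.51 CPM. Under the filter, RPS2 had 7, 7 and 8 counts against 4, 9 and 9, RPS6 had 8, 6 and 9 against 8, 6 and 7, and RPS27A had 7, 2 and 9 against 17, 24 and 5.

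Translational efficiency at the other times was near the values of footprints. At 6 h the edgeR count was 0 of 9, with 0 at an unadjusted p under 0.05 and 0 by DESeq2, against 0 of 951 genes (0%), 5.26% at an unadjusted p under 0.05 and 1 in DESeq2. The median was 0.29 with TMM scaling, with 8 of 9 above 0 (47.6% of all genes), and -0.36 with library totals, where the median of all genes moved from -0.03 to -0.79, and it was -0.14 without footprint actD replicate 3, 0.44 without footprint actD replicate 2, 0.17 without footprint DMSO replicate 1 and 0.09 without footprint DMSO replicate 2. At an unadjusted p under 0.05 stood 3 of 12 genes without footprint DMSO replicate 3, 2 of 12 without footprint actD replicate 1 and 1 of 12 without footprint actD replicate 2. Over all genes 152 of 1427, 112 of 1411 and 112 of 1427 were at that level in these fits, in the same order. RPS3 was highest at 1.06 (SE 0.49) and FAU lowest at -0.47 (SE 0.51), with RPS4X at 0.71, RPS25 at 0.49 and RPS13 at 0.47. At 2 weeks the count was 0 of 12 in edgeR and 0 in DESeq2, with 1 at an unadjusted p under 0.05, against 0 of 1441 genes (0%), 5.14% at an unadjusted p under 0.05 and 1 in DESeq2. FAU was that gene at 0.60 (SE 0.22, edgeR adjusted p = 0.879), RPS13 was highest at 1.38 (SE 1.08) and RPS4X lowest at -0.88 (SE 0.78). The 2-week median of 0.32, with 9 of 12 above 0 (48% of all genes), was 0.54 with the RNA treatments taken from the titles, 0.63 with library totals (all genes 0.27), 0.56 without footprint actD replicate 1, 0.01 without footprint actD replicate 2 and 0.15 without footprint actD replicate 3. At an unadjusted p under 0.05 stood 5 of 14 genes without footprint actD replicate 1, 6 of 15 without footprint DMSO replicate 3 and 2 of 12 without footprint actD replicate 3, and none without RNA named actd replicate 1. Over all genes 226 of 1793, 183 of 1900, 57 of 1528 and 67 of 1445 were at that level, in the same order. RPS3A was at 1.09 (SE 0.53), RPS23 at 0.78 (SE 0.59) and RPS25 at -0.67 (SE 0.52).

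Whether the response differed between times was tested as the interaction of treatment and time. In RNA, 72 h against 6 h, the edgeR count was 0 of 28 and 0 in DESeq2, with 1 at an unadjusted p under 0.05, against 4 of 24251 genes (0.0165%), 8.02% at an unadjusted p under 0.05 and 158 genes in DESeq2. Differences above 0, a higher ratio of actD to DMSO at 72 h, were found in 3 of 28 (47.9% of all genes). The gene at that level was RPS9, whose difference between times was -0.67 (SE 0.23, edgeR adjusted p = 0.524), and RPS2 was the highest at 0.32 (SE 0.32). RPS23 was the lowest at -0.76 (SE 0.35, edgeR adjusted p = 0.625), RPS4X was at -0.73 (SE 0.37) and RPS24 at -0.59 (SE 0.33). The median of -0.46 was -0.10 without the 72 h DMSO replicate 3 and -0.27 without the 6 h actD replicate 3. Without the 72 h DMSO replicate 2, 10 of 28 genes were at an unadjusted p under 0.05, against 2735 of 25307 over all genes.

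In footprints, 72 h against 6 h, the edgeR count was 0 of 23 and 0 in DESeq2, with 1 at an unadjusted p under 0.05 (RPS20, 1.37, SE 0.60, edgeR adjusted p = 0.733), against 0 of 3012 genes (0%), 6.54% at an unadjusted p under 0.05 and 6 in DESeq2. Differences were above 0 in 19 of 23 (58.5% of all genes), with a median of 0.48 against 0.22 over all genes. That median was 0.21 without 6 h actD replicate 2, 1.09 without 6 h actD replicate 3, 0.81 without 6 h DMSO replicate 2, 0.88 without 6 h DMSO replicate 3, 0.81 without 72 h actD replicate 1 and 0.86 without 72 h DMSO replicate 2. With library totals it was 1.11, where the median of all genes was 0.82. RPS15A was at 1.52 (SE 0.86), RPS6 at 1.93 (SE 1.16) and RPS7, which is bound by MDM2, at 2.672 (SE 1.62), the highest, while RPS18 was the lowest at -1.39 (SE 2.24). For 2 weeks against 72 h the count was 0 of 23 in edgeR and 0 in DESeq2, against 2 of 3760 genes (0.0532%), 7.5% at an unadjusted p under 0.05 and 11 in DESeq2. At an unadjusted p under 0.05 stood 5 of the 23, all lower at 2 weeks, against 4.52% of all genes lower. They were RPS21 (-2.38, SE 0.67, edgeR adjusted p = 0.366), RPS12 (-2.35, SE 0.78, edgeR adjusted p = 0.471), RPS29 (-1.74, SE 0.65), RPS15A (-1.85, SE 0.76) and RPS20 (-1.40, SE 0.60). Of these, RPS21, RPS12, RPS29 and RPS20 had enough footprint counts to pass the filter at 72 h but not at 2 weeks. At 2 weeks RPS21 had 3, 4 and 4 counts under actD against 3, 6 and 5, and RPS12 had 4, 4 and 2 against 1, 10 and 4. All 5 were also at an unadjusted p under 0.05 in the same 72 h libraries, so this count adds no independent support. The highest was RPS24 at 3.03 (SE 4.38), which was at 0 in most of these libraries. Differences above 0 were found in 5 of 23 (44.9% of all genes), with a median of -0.82 against -0.12 over all genes. That median was -1.28 without 2-week actD replicate 3, -0.44 without 2-week DMSO replicate 3 and -0.44 without 72 h actD replicate 3. The number of 5 genes was between 2 (without 72 h DMSO replicate 3) and 7 (without 72 h DMSO replicate 2) when 1 library was left out. Over all genes 487 of 4758 and 331 of 4250 were at an unadjusted p under 0.05 in these fits, higher and lower together. The higher footprint values at 72 h were not shown to be confined to that time.

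**Figure D5:**
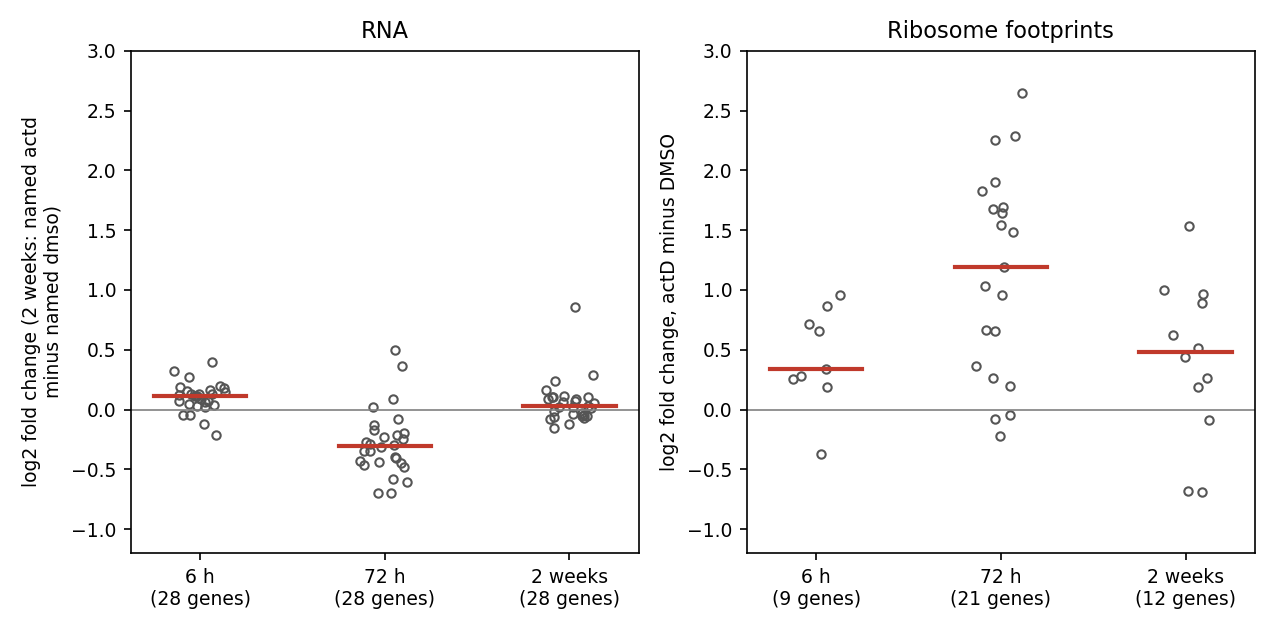
Log2 fold changes of the small-subunit genes that passed the filter, by time, in RNA (left, 2 weeks as named actd minus named dmso) and footprints (right, actD minus DMSO); circles are genes and red lines medians. The footprint medians are 0.34, 1.20 and 0.48 over 9, 21 and 12 genes, and the RNA medians 0.11, -0.31 and 0.03 over 28.

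Genes of the same pathway, listed by function, are given beside these counts. Of 47 large-subunit protein genes, 35 were tested in footprints at 72 h, with a median of 1.23. In edgeR 5 were called higher (RPL13, RPL28, RPL34, RPL35 and RPL37A) and none lower, against 1.61% of all genes higher and 2.18% lower. At an unadjusted p under 0.05 stood 19, all higher, against 14.2% of all genes higher and 13.1% lower. Of 45 small-subunit assembly factors, 13 were tested there with a median of -0.65, and 2 were at an unadjusted p under 0.05, all lower. PDCD11, which processes pre-18S RNA, was called lower, with a log2 fold change of -1.67 (edgeR adjusted p = 0.0473). Of 20 other genes with TOP messengers, such as elongation factors, 11 were tested with a median of 0.01 and none called in edgeR. At an unadjusted p under 0.05 stood 2 of them, all higher. Of 12 regulators of TOP messengers, 2 were tested and none called in edgeR, with 1 higher at an unadjusted p under 0.05. The calls of RPL genes and PDCD11 are among the 92 of this comparison, which were 0 without actD replicate 1, actD replicate 2, DMSO replicate 1 or DMSO replicate 2.

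In RNA no gene of these 4 lists was called by edgeR at any time. At 72 h the medians were -0.30 for the large subunit, -0.35 for assembly factors, -0.56 for other TOP messengers and -0.15 for their regulators, beside -0.31 for the small subunit. At an unadjusted p under 0.05 at 72 h stood 4, 7, 11 and 4 genes, all lower, against 7.78% of all genes lower. DMSO replicate 3, on which the lean of the small-subunit genes rested, is among these libraries, and the lists were not recomputed without it. At 6 h the medians were 0.13, -0.16, 0.13 and 0.07, beside 0.11. Among the 45 assembly factors 9 were lower and 1 higher at an unadjusted p under 0.05. Over all 22669 genes tested at 6 h, 1029 were lower and 833 higher at that level. RPS9 was the 1 small-subunit gene at that level at 72 h, and at 6 h there was none.

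7 of the 28 genes carry small nucleolar RNAs in their introns, namely RPSA, RPS2, RPS3, RPS3A, RPS12, RPS13 and RPS20. These RNAs guide modification of ribosomal RNA and are counted as genes of their own. In footprint libraries they held 624, 187 and 323 counts at 6 h, 72 h and 2 weeks, against 2153, 10688 and 2244 counts in the 28 genes. At 6 h the 3 RNAs within RPS12 (SNORA33, SNORD100 and SNORD101) held 408 counts and RPS12 itself 35, and the pair within RPS2 (SNORA10 and SNORA64) held 136 and RPS2 itself 33. These RNAs are not translated. At 72 h those within RPS12 held 28 counts and RPS12 itself 160, while those within RPS2 again held more counts than RPS2.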

How the data were processed

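RNA and footprint libraries of WiT49 cells were read from the deposited gene tables, whose values are taken as estimated counts: the authors deposited whole numbers per gene, so rounding changed nothing, and small values in the 6 h and 2-week RNA data pile up at regular steps. Per the submitters' processing notes the tools were HISAT2 and StringTie with hg38; trimming, the removal of ribosomal RNA, the handling of reads with several matches and strand are not given in the sources used here. Gene identifiers, without version, were matched to GENCODE names (99.4%).

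Counts were tested with edgeR 4.0.16 in R 4.3.3 (filterByExpr, TMM, quasi-likelihood F-test, 3 against 3 libraries of 1 time and assay). P-values were adjusted by Benjamini-Hochberg over all genes tested, with a threshold of 0.05, and SEs are the log2 fold change divided by the root of F. Translational efficiency was the interaction of assay and treatment, and differences between times that of treatment and time. CPM use TMM-scaled library sizes, so levels are compared within a time and assay. A zero allows up to 3 counts. DESeq2 1.42.0 and limma 3.58.1 served alternatives and support. The code was tested on simulated data. Named genes were, per comparison, those called (at most 10) or, where fewer than 4 were called, the 4 with the smallest p, those with the highest and lowest log2 fold change, and in RNA and footprints RPS27A, FAU, RPS6, RPS2, RPS3 and RPS19. Other genes, among them those whose arms did not overlap and RPSA, RPS25 and RPS15A at 72 h, were picked with their values already known. The genes and lists were chosen with earlier results of these data known. Same-numbered libraries were not taken as pairs. Alternatives were DESeq2, library totals, no filter, protein-coding genes only, a replicate block, 1 fit over the times, treatment by title and leaving out each library; adding pseudogene counts was chosen after seeing the data. Of the marker genes checked, 1 is not reported here.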

Additional observations from a re-analysis of the deposited data

How the results depend on the processing

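No call of a small-subunit gene was made by edgeR in any of the 12 comparisons, and most alternatives left that number at 0. DESeq2 called 1 gene in RNA at 72 h (RPS9; 605 of 21195 genes in all), 1 in RNA at 2 weeks (RPS16; 197 of 21137) and 2 in translational efficiency at 72 h (59 of 2311), and 1 fit over the 3 times called 1 in RNA at 72 h (1212 of 24803). In footprints at 72 h, 2 of 27 genes were called without a filter (321 of 13813 in all), 2 of 20 with protein-coding genes only (182 of 2088) and 2 of 23 in 1 fit over the 3 times (96 of 3986), and 0 to 1 when 1 library was left out. The cause was not tested.

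The replicate block called 0 small-subunit genes in every comparison it was fitted to. It took the calls over all genes from 92 to 0 in footprints at 72 h, from 10 to 0 in the efficiency at the same time, and from 1 to 0 in RNA at 72 h. Small-subunit genes at an unadjusted p under 0.05 went from 9 to 5 of 21 in footprints at 72 h with the block. In the efficiency at 72 h they went from 9 to 3 of 21. Over all genes the numbers went from 663 to 584 of 2426 in footprints and from 345 to 429 of 2311 in the efficiency. These count higher and lower together, while the small-subunit genes at that level were all higher. The numbers were not shown to pair the libraries: RNA and footprint libraries of 1 number at 72 h had correlated deviations of 0.182, 0.193 and 0.421 under actD and 0.148, 0.0634 and 0.157 in DMSO. At 2 weeks the values were 0.212, 0.218 and 0.0807 for actD and 0.130, 0.106 and 0.132 for DMSO, and there each library correlated best with its own number, which is a hint from the data and not from the design.

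With treatment by title, the 2-week RNA values were -0.858 for RPS16, -0.290 for RPS15, -0.239 for RPS26, 0.153 for RPS3A, 0.0773 for RPS27A, 0.0494 for FAU, 0.0318 for RPS6, -0.116 for RPS2, -0.0729 for RPS3 and 0.0718 for RPS19. With library totals, RPS2 was at -0.0344 and RPS3 at -0.0676 in that comparison, and in translational efficiency at 6 h RPS25 was at -0.110 and RPS13 at -0.0588. Leaving out 1 library in turn gave these ranges of log2 differences that include both signs. In RNA at 6 h they were -0.0162 to 0.705 for RPS16, -0.0931 to 0.155 for FAU, -0.0212 to 0.202 for RPS6 and -0.102 to 0.159 for RPS19. In RNA at 72 h they were -0.0413 to 0.0920 for FAU and -0.550 to 0.0387 for RPS19. In RNA at 2 weeks they were -0.163 to 0.0392 for RPS27A, -0.138 to 0.0448 for FAU, -0.0784 to 0.0684 for RPS6, -0.0689 to 0.216 for RPS3 and -0.160 to 0.00758 for RPS19. In footprints RPS9 at 72 h ranged from -0.530 to 0.162, and RPS19 at 2 weeks from -0.552 to 0.784. RPS4X in translational efficiency at 2 weeks ranged from -1.27 to 0.436, and RPS24 in the footprint difference of 2 weeks against 72 h from -2.59 to 3.81. The cause of these changes of sign was not tested. With library totals the median of all genes moved from 0.02 to -0.14 in footprints at 2 weeks and from 0.22 to 0.82 in the footprint difference of 72 h against 6 h. In footprints, 9 of the 28 genes at 6 h, 21 at 72 h and 12 at 2 weeks had enough counts to be tested.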
